A study of Mus musculus with 4 samples.

Results

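The genes described here build, guard or drive the mitotic chromosome: proteins of the kinetochore, the spindle checkpoint with its kinases, the mitotic kinesins and the SMC proteins. They were given as a list of 54 symbols and looked up in a table of expression values for 22556 genes in mouse embryonic lung. All 54 symbols were found, and all 54 passed the filter on low values, as did 13770 genes in all. It includes 6 genes that the study had named as cell-cycle genes from these same samples (Ranbp2, Smc5, Mki67, Sgol2, Taf1 and Cenpe), so those 6 were picked on the libraries described here and their direction is no independent evidence, beside the limit that holds for the whole list and is given with the methods. By the longest annotated transcript, 26 members were long (at least 4000 bases) and 28 were short.

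During mitosis the kinetochore forms on centromeric chromatin and couples each chromosome to spindle microtubules. Its inner layer contains the CENP proteins that stay at the centromere, and its outer layer contains the NDC80 complex, which grips the microtubule, and the scaffold KNL1. Unattached kinetochores hold back anaphase through the checkpoint proteins of the BUB and MAD families, while kinesins slide, bundle or take apart microtubules and SMC proteins hold sister chromatids together (cohesin), compact chromosomes (condensin) or help in DNA repair (the SMC5/6 complex). Many of these genes are transcribed mainly in late cell cycle stages, and their mRNAs are widely used as marks of dividing cells, which are abundant in the lung before birth.

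The libraries were made from whole lungs at embryonic day 16.5, 2 from Control embryos (Shh-Cre; Stk11F/+) and 2 from Shh-Stk11 embryos (Shh-Cre; Stk11F/F). Both genotypes carried the Shh-Cre driver, which is active in the endoderm that gives rise to the lung epithelium, so that Control embryos had 1 floxed and 1 intact Stk11 allele and the rest of the lung kept its Stk11 in both. Stk11 codes for a kinase known as a tumor suppressor. The strain label was C57BL/6 although mixed backgrounds stand in the study's methods, and neither litter nor pooling of the embryos was given. The question was how mitotic genes differ between lungs with and without epithelial Stk11. In a whole organ, fewer cells of a type and less RNA per cell cannot be told apart.

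Promoter sequence was a property that the choice of members had not used, and it is shown first because most long and most short members shared an element there. The cell cycle homology region (CHR), an element through which MuvB complexes act on late cell cycle genes, was searched as TTTGAA on either strand or as TTTAAA, which reads the same on both strands. The CCAAT box, the site of NF-Y, was searched as CCAAT on either strand. Matches of different motifs may overlap. RefSeq promoters (GRCm38.p6, 250 bases before to 50 bases after a start) were matched for 48 members, 52 windows in all, and the 6 members without an entry were Smc4, Spc24, Aurkb, Kif20a, Incenp and Tpx2. A CHR was present in 61.5% of the member promoters, against 27.6% of all 32851 promoters of this length. A CCAAT box was present in 71.2% against 37.4%, and both elements in 46.2% against 10.7%. The CHR share was 65.4% in promoters of long members and 57.7% in those of short members.

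The 100 bases before the start of 3 long members (Top2a, Kif15 and Kif11) and 3 short members (Plk1, Kif22 and Cenpa) are shown because each has a CHR there. Most members do not. Of the 48 matched members, only these and Bub3, Cenpn, Espl1, Kif14 and Mki67 had a CHR in that stretch. The shares above count matches anywhere in the windows. Capitals mark the CHR (TTTGAA, its reverse complement TTCAAA, or TTTAAA) and the CCAAT box (CCAAT or its reverse complement ATTGG), and each is written 5′ to 3′ on the strand of the gene. In GRCm38.p6 they lie at chr11:99024190-99024289 on the minus strand (Top2a), chr9:122950981-122951080 on the plus strand (Kif15), chr19:37376282-37376381 on the plus strand (Kif11), chr7:122159335-122159434 on the plus strand (Plk1), chr7:127042421-127042520 on the minus strand (Kif22) and chr5:30666786-30666885 on the plus strand (Cenpa).
Top2a: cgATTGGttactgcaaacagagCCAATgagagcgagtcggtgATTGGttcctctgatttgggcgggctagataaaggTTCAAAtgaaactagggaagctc
Kif15: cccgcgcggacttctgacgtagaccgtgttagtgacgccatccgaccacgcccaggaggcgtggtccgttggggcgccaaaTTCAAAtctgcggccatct
Kif11: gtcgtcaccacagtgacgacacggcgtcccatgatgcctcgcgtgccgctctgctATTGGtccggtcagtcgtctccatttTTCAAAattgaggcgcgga
Plk1: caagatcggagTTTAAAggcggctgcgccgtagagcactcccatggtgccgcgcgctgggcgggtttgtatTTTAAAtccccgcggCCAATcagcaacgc
Kif22: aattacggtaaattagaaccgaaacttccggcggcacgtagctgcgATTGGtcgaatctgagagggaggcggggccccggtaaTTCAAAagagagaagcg
Cenpa: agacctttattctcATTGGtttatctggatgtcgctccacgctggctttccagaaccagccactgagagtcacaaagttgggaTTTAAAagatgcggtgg

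In these windows the CHR began 23 bases before the start in Top2a, 19 in Kif15 and Kif11, and 17 in Kif22 and Cenpa. Plk1 had a pair of them, beginning 89 and 29 bases before its start. On the difference between genotypes described below, long members with a CHR had a median log2 fold change of 0.65 (16 genes) and long members without one 0.81 (8 genes), and short members had −0.07 (15 genes) and 0.04 (9 genes). A match of letters is a description and shows no binding.

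The values are FPKM (reads per length of transcript and number of mapped reads). Estimated depths were 30.8 to 38.0 M reads per library, and the least covered member in any library, Casc5, had about 270 estimated reads there. Stk11 itself was at 44.0 and 45.5 FPKM in Control and 29.5 and 25.9 FPKM in Shh-Stk11 and fell by 0.69 on the log2 scale (SE 0.12, limma adjusted p = 0.0499, or 0.0599 with the length and GC trend described below removed). Xist and Ddx3y marked Shh-Stk11 2 as male and the other 3 libraries as female (Xist 65.1, 90.8, 169 and 0.239 FPKM). Of 31 marker genes of lung cell types and heart muscle none was at 0 in any library, and none of the 29 tested passed the threshold of an adjusted p of 0.05. Summed marker levels in Control and Shh-Stk11, respectively, were 16190 to 17830 and 8510 to 12540 FPKM for epithelium (5 genes), 1599 to 1709 and 1244 to 1408 FPKM for mesenchyme (5 genes), and 363 to 441 and 318 to 330 FPKM for endothelium (5 genes). The epithelial sum was mostly Sftpc, a surfactant gene, and the median log2 fold change of that list was 0.21. They were 5551 to 5763 and 3735 to 4087 FPKM for red blood cells (6 genes), 289 to 326 and 197 to 382 FPKM for immune cells (5 genes), and 79.5 to 191 and 35.8 to 107 FPKM for heart muscle (5 genes). The part of the sex of Shh-Stk11 2 and of these cell types in the differences below was not tested.

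Levels of the long mitotic genes were higher in both Shh-Stk11 lungs than in both Controls for most members, whereas most short ones overlapped with Control. The median log2 fold change of Shh-Stk11 over Control was 0.27 over the 54 members, against −0.05 over all 13770 genes tested. The median over all members was 0.04 without Control 1, 0.11 without Shh-Stk11 1 and 0.09 over members averaging at least 5 FPKM, whereas it was 0.42 without Control 2 and 0.38 without Shh-Stk11 2. With all 4 libraries it was 0.73 over the 26 long members (range −0.17 to 1.15), 24 of which were above 0, and −0.04 over the 28 short members (range −0.16 to 0.48), 13 of which were above 0. The value over the long members was 0.45 without Shh-Stk11 1, 0.40 with a trend on length and GC content removed and 0.37 when genes from 3000 bases counted as long, and that over the short members was −0.20 without Control 1 and 0.18 without Control 2. Over all tested genes of the same length classes the median was 0.06 (5033 long genes) and −0.10 (8600 short genes). Of these, 60.38% of the long and 30.65% of the short genes were above 0.

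Ranbp2 was the only member past the threshold, which 0.98% of all tested genes passed in the higher and 1.29% in the lower direction. At an unadjusted limma p under 0.05 there were 17 members, all higher in Shh-Stk11 and all long, where 8.04% of all tested genes were higher and 7.18% lower at that level. Of all long genes 14.8% were higher and 3.22% lower at it. In 22 members both Shh-Stk11 values lay above both Control values (40.7%, against 19.2% of all tested genes), and in 2 members, Bub3 and Aurka, both lay below (3.70%, against 27.6%). By length these were 19 of the 26 long members (73.1%, against 31.4% of all long genes) and 3 of the 28 short ones (10.7%, against 12.1% of all short genes). The share among short members was thus near that of short genes in general. The smallest two-sided p that an exact permutation of 2 against 2 libraries allows is 0.333, and limma's smaller values come from variance shared across genes.

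**Figure D1:**
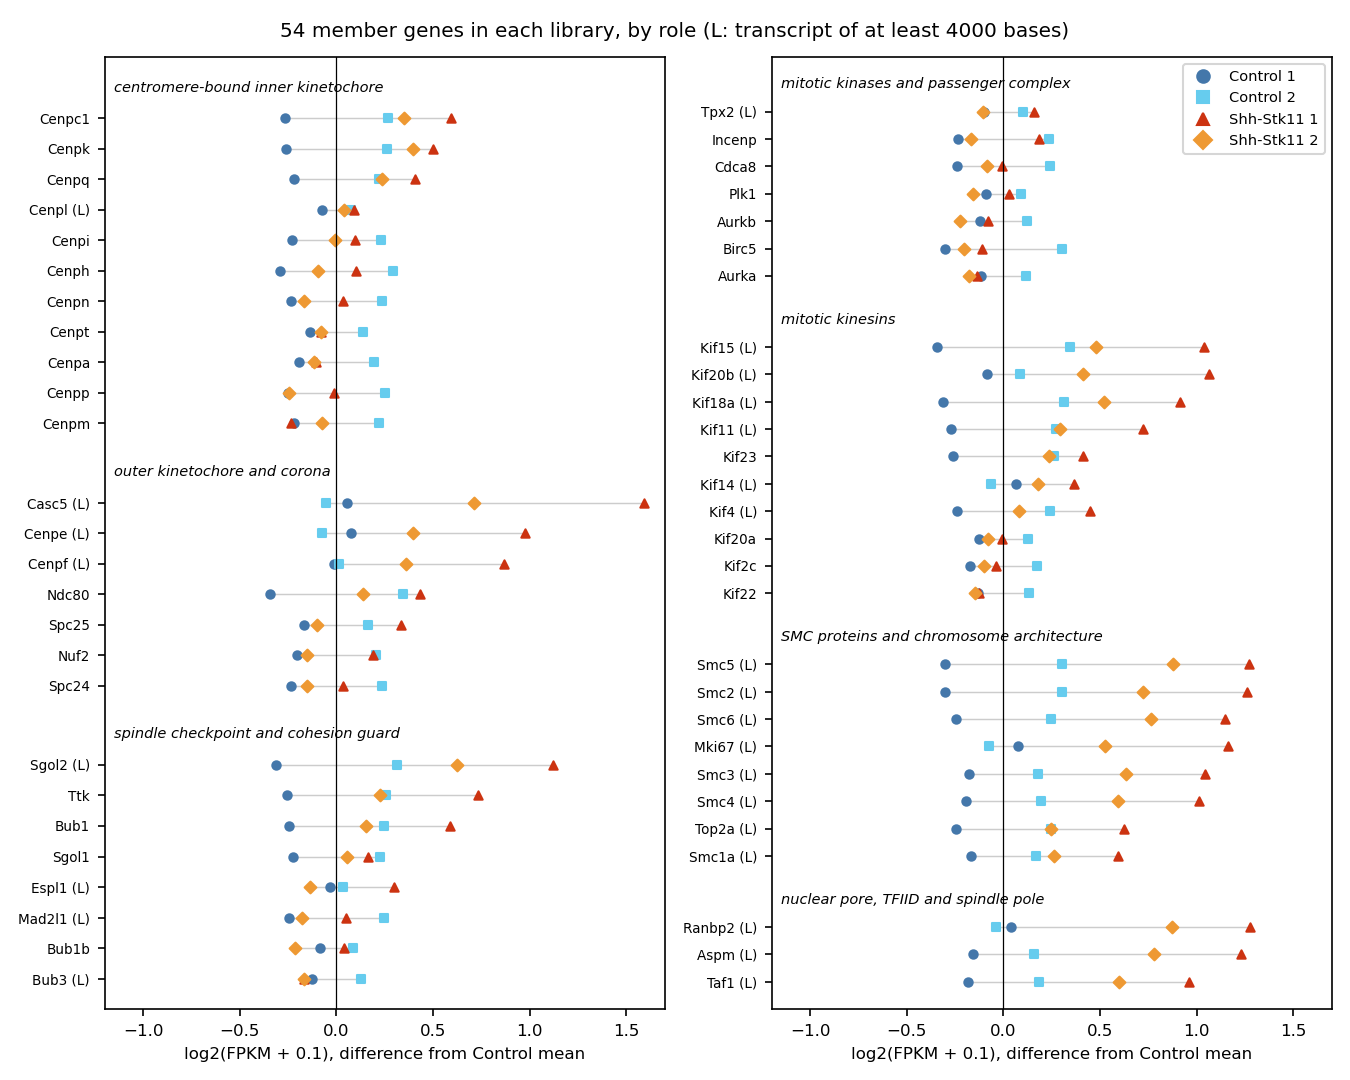
Each row is a member gene, grouped by role, and each point is a library, placed by its difference in log2(FPKM + 0.1) from the mean of the 2 Control libraries (grey lines join the lowest and highest library, and L marks the 26 long genes). Shh-Stk11 1 is the rightmost point in 24 of 26 long genes and in 8 of 28 short genes. Over all tested genes it was the highest library in 2015 of 5033 long and 958 of 8600 short ones.

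The 11 members of the centromere-bound inner kinetochore, 10 of them short, had a median log2 fold change of 0.00 (range −0.15 to 0.47). That median was −0.22 without Control 1 and 0.17 without Control 2, since the Controls lay a median of 0.46 apart in these genes. The highest was Cenpc1, which codes for the CENP-C protein that links centromeric nucleosomes to the outer kinetochore, at 7.03 and 10.2 FPKM in Control and 12.8 and 10.9 FPKM in Shh-Stk11. Its groups did not overlap, but the difference of 0.47 (SE 0.20, limma adjusted p = 0.346) did not pass the test. The lowest was Cenpm, a small CENP protein of the same layer, at 12.7 and 17.2 FPKM in Control and 12.6 and 14.0 FPKM in Shh-Stk11 (log2 fold change −0.15, SE 0.18, limma adjusted p = 0.726). Cenpk and Cenpq were the other members of this layer whose groups did not overlap, at log2 fold changes of 0.45 and 0.32. Cenpa, the histone variant that defines the centromere and one of the most abundant members per length, was at 58.3 and 76.6 FPKM in Control and 62.2 and 61.7 FPKM in Shh-Stk11, with both Shh-Stk11 values inside the Control range.

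In the outer kinetochore the median log2 fold change was 0.69 over the long genes and 0.07 over the short ones. With the length and GC trend described below removed, these medians were 0.36 and 0.13, and the long Cenpf (0.22) was level with the short Ndc80 (0.21). Casc5 codes for KNL1, the scaffold on which checkpoint proteins assemble, and it had the highest log2 fold change of the 54. It was at 1.22 and 1.13 FPKM in Control and at 3.73 and 1.99 FPKM in Shh-Stk11, which is a 2.44-fold ratio of means. The Shh-Stk11 libraries were both higher but lay apart from each other, and the log2 fold change of 1.15 (SE 0.31) had a limma adjusted p of 0.134. Cenpe, a kinesin of the fibrous corona that carries chromosomes to the metaphase plate, was at 2.01 and 1.80 FPKM against 3.85 and 2.54 FPKM (log2 fold change 0.69 with an SE of 0.24, limma adjusted p = 0.237). Cenpf, the longest member with a transcript of 11130 bases and a corona protein as well, had 0.62. The 4 subunits of the NDC80 complex, all with short transcripts, overlapped between genotypes, with Ndc80 at 0.29, Spc25 at 0.12, Nuf2 at 0.02 and Spc24 at −0.06. Spc24, the lowest of the layer, was at 34.2 and 47.3 FPKM in Control and 41.1 and 36.2 FPKM in Shh-Stk11, with both mutant values between those of the Controls (limma adjusted p = 0.911).

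The spindle checkpoint genes and the guards of cohesion had a median of 0.09 over 8 members, which was −0.03 without Control 1 and −0.04 without Shh-Stk11 1. Sgol2, now Sgo2a, codes for a shugoshin that protects centromeric cohesin, and it was at 2.93 and 4.58 FPKM in Control and 8.09 and 5.71 FPKM in Shh-Stk11. Its groups did not overlap, and its log2 fold change was 0.87 (SE 0.26, limma adjusted p = 0.170). Sgol1, its short paralog, was at 0.11. Bub3, which recruits the BUB kinases to kinetochores, was lowest of all 54 members, at 73.9 and 88.1 FPKM against 71.8 and 71.8 FPKM (log2 fold change −0.17 with an SE of 0.14, limma adjusted p = 0.617). The kinase gene Bub1 was at 7.03 and 9.91 FPKM in Control and 12.6 and 9.30 FPKM in Shh-Stk11, and one mutant value lay inside the Control range (log2 fold change 0.37, SE 0.22). Ttk, which codes for the checkpoint kinase MPS1, had the highest log2 fold change of any short member, 0.48 (SE 0.24, limma adjusted p = 0.412), from 5.30 and 7.60 FPKM in Control and 10.6 and 7.44 FPKM in Shh-Stk11. Its groups overlapped, since Shh-Stk11 2 was below Control 2. Bub1b, Mad2l1 and the separase gene Espl1 lay between −0.09 and 0.08.

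The mitotic kinases and the chromosomal passenger complex had a median of −0.06 and a range of −0.16 to 0.03 over 7 members. The median was −0.28 without Control 1 and 0.13 without Control 2. Plk1, the kinase of mitotic entry and spindle assembly, was at 23.2 and 26.4 FPKM in Control and 25.3 and 22.2 FPKM in Shh-Stk11. Its log2 fold change of −0.06 had a 95% confidence interval of −0.39 to 0.26, below the point estimates of the SMC genes (0.43 to 1.07). The interval of Smc1a, the lowest of these, ran from 0.007 to 0.84 and overlapped that of Plk1. Aurka, the spindle pole kinase, was at 29.6 and 34.9 FPKM against 29.2 and 28.4 FPKM (log2 fold change −0.16, interval −0.47 to 0.16). Its mutant values were both the lower ones, by less than the gap between the Controls. Aurkb, the kinase of the passenger complex, was at 27.2 and 32.3 FPKM against 28.0 and 25.4 FPKM (−0.15, interval −0.49 to 0.18). Birc5, which codes for survivin of the same complex and was the most abundant member per length, was at 81.1 and 124 FPKM against 92.5 and 86.8 FPKM (−0.16, interval −0.66 to 0.34). Both of these overlapped between genotypes. Tpx2, a spindle assembly factor that activates Aurora A, was the long member closest to no difference, at 31.4 and 36.1 FPKM against 37.6 and 31.3 FPKM (log2 fold change 0.03, SE 0.15).

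The medians of the mitotic kinesins differed by transcript length, but the ranges of long and short genes overlapped. Among kinesin genes the 6 long ones had a median log2 fold change of 0.61 (range 0.27 to 0.76) and the 4 short ones −0.06 (range −0.14 to 0.32). The median of the long ones was 0.37 without Control 1 and 0.35 without Shh-Stk11 1, and that of the short ones −0.21 without Control 1 and 0.10 without Control 2. Kif15, a plus-end motor that helps to keep spindle poles apart, was highest. It was at 4.81 and 7.81 FPKM in Control and 12.7 and 8.59 FPKM in Shh-Stk11, with no overlap and a log2 fold change of 0.76 (SE 0.28, limma adjusted p = 0.259). Kif20b (0.74) and Kif18a (0.72) followed, and Kif11, the motor that separates the poles, was at 0.51. Kif22, a chromosome-bound kinesin with a short transcript, was lowest at 35.1 and 42.3 FPKM against 35.3 and 34.7 FPKM (log2 fold change −0.14 with an SE of 0.14, limma adjusted p = 0.690). Kif23, a motor of the central spindle, was the short kinesin gene above 0, at 0.32 (0.06 without Control 1). The long genes Kif14 and Kif4 were lower, both at 0.27. With the length and GC trend removed, Kif23 was at 0.36, beside medians of 0.31 over the long kinesin genes and 0.02 over the short ones. None of the 10 passed the threshold.

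All 8 genes of the SMC and chromosome architecture class had long transcripts, and all 8 were higher in Shh-Stk11, with a median log2 fold change of 0.84. In the 6 SMC genes both mutant values lay above both Control values, as in 31.4% of all long genes. Smc5, a subunit of the SMC5/6 repair complex, was at 4.24 and 6.49 FPKM in Control and 12.8 and 9.71 FPKM in Shh-Stk11, a 2.10-fold ratio of means. Its log2 fold change was 1.07 (SE 0.24, limma adjusted p = 0.0822), and its partner Smc6 was at 0.96. The condensin pair Smc2 and Smc4 was at 0.99 and 0.80, and the cohesin subunit Smc3 at 0.84. Smc1a, the partner of Smc3, was lowest of the class, at 29.3 and 37.1 FPKM in Control and 49.7 and 39.5 FPKM in Shh-Stk11 (log2 fold change 0.43, SE 0.17, limma adjusted p = 0.318). None of the 6 passed the threshold.

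Mki67, the gene of the Ki-67 antigen that coats mitotic chromosomes and is used to mark proliferating cells, was at 6.75 and 6.06 FPKM in Control and 14.5 and 9.27 FPKM in Shh-Stk11. Its groups did not overlap (log2 fold change 0.85, SE 0.22, limma adjusted p = 0.121). Top2a, the topoisomerase that untangles sister chromatids, was at 49.6 and 69.8 FPKM against 90.6 and 69.7 FPKM. Its second mutant library stood level with the second Control, and the log2 fold change was 0.43 (SE 0.21, limma adjusted p = 0.402).

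The last 3 members work at the nuclear pore, in general transcription and at the spindle pole. Ranbp2 codes for a nuclear pore protein that also acts at kinetochores as a SUMO ligase, and it rose in Shh-Stk11. It was at 6.46 and 6.11 FPKM in Control and 15.3 and 11.6 FPKM in Shh-Stk11, a 2.14-fold ratio of means with a log2 fold change of 1.07 (SE 0.17, limma adjusted p = 0.0335). The Controls were close to each other and both mutant libraries lay well above them. This call was lost in 9 of the 16 other settings chosen at the outset, over which the adjusted p ran from 0.0104 to 0.262, among them each that left out Control 1, Control 2 or Shh-Stk11 1. Without Control 1 its adjusted p was 0.173, without Control 2 0.178 and without Shh-Stk11 1 0.123, with log2 fold changes of 1.11, 1.03 and 0.87. Taf1, the largest subunit of the general transcription factor TFIID, was at 4.50 and 5.84 FPKM in Control and 10.1 and 7.80 FPKM in Shh-Stk11 (log2 fold change 0.78, SE 0.19, limma adjusted p = 0.109). Aspm, which codes for a protein of the spindle pole, was 2.05-fold higher by the ratio of means, with no overlap (limma adjusted p = 0.0751).

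The members were then compared by transcript length and base composition. Across the 54 members the log2 fold change was correlated with log2 transcript length (Pearson's r = 0.64, Spearman's rho = 0.65), with log2 coding length (r = 0.73) and inversely with GC content (r = −0.64). These are correlations across genes, which share the same 4 libraries and are not independent replicates, and they are given as descriptions. Over 13633 tested genes with a matched transcript the correlation with length was weaker (r = 0.25, rho = 0.37). Relations of this kind were also present within a genotype. Over all genes the difference of Control 2 from Control 1 had r = −0.17 and rho = −0.36 with length, and that of Shh-Stk11 2 from Shh-Stk11 1 had r = −0.12 and rho = −0.37. Over the 54 members these were r = −0.42 and rho = −0.26 between the Controls and r = −0.59 and rho = −0.59 between the Shh-Stk11 libraries (r = −0.43 and −0.71 with coding length). All genes of 8000 bases or more had a median of 0.23 (735 genes), the 6 members among them 0.81. All genes of 4000 to 5000 bases had −0.00 (2027 genes), the 10 members among them 0.47. Between the Controls alone (Control 2 minus Control 1) all genes went from 0.23 below 1000 bases to −0.23 at 8000 bases or more, a drift as large as that between the genotypes. Transcript and coding length did not sort all members alike. Mad2l1, Bub3 and Cenpl had long transcripts (7557, 4015 and 4883 bases) with coding sequences of 615, 978 and 1035 bases, and none of them exceeded 0.07, whereas Kif18a, with 6509 bases and a coding sequence of 2658, was at 0.72. By a coding sequence of at least 3000 bases the split was 0.76 over 23 members, of which 22 were above 0, and −0.04 over the other 31. The first of these was 0.48 without Shh-Stk11 1.

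**Figure D2:**
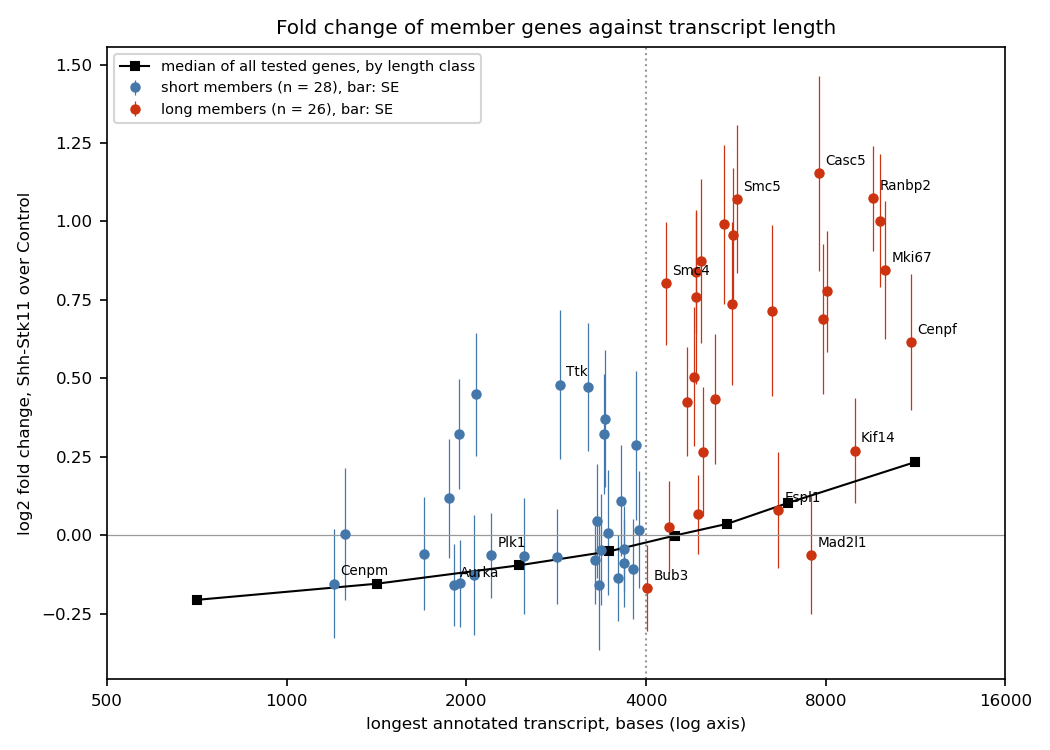
Log2 fold change of each member (Shh-Stk11 over Control, bars are the SE from limma) against its longest annotated transcript on a log axis, with the 26 long members in red, the 28 short members in blue and the median of all tested genes by length class in black. All genes drift from −0.21 below 1000 bases to 0.23 at 8000 bases or more, and most long members lie above that line, while the difference between the 2 Controls in the same classes, not drawn, goes from 0.23 to −0.23.

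Within short genes base composition went the same way. The 11 short members with a GC content below the member median of 43.3% had a median log2 fold change of 0.29, and the other 17 had −0.07. The first value was −0.05 without Control 1 and 0.14 without Shh-Stk11 1. Among long members the medians were 0.78 (16 genes of lower GC content) and 0.35 (10 genes), the latter being 0.22 without Control 1 and 0.21 without Shh-Stk11 1.

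A trend of level on transcript length and GC content was then removed from each library before the same fit. The median of the long members went from 0.73 to 0.40, that of the short members from −0.04 to 0.03 and that of all members from 0.27 to 0.18. No member passed the threshold, which 0.682% of all genes in this fit passed in the higher and 0.77% in the lower direction. At an unadjusted p under 0.05 there were 8 higher members and 1 lower, against 7.31% and 7.35% of all genes in this fit. Ranbp2 was then at 0.61 (limma adjusted p = 0.110), Casc5 at 0.63, Smc5 at 0.70, Taf1 at 0.47, Cenpe at 0.36 and Top2a at 0.28. The 6 SMC genes had a median of 0.66 and the long kinesin genes 0.31. Across the 54 members the correlation with length was 0.39 and that with coding length 0.66 after removal. The longest transcript need not be the one the authors quantified, which limits this step. Mad2l1, whose long transcript holds a short coding sequence, went from −0.06 to −0.49.

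**Figure D3:**
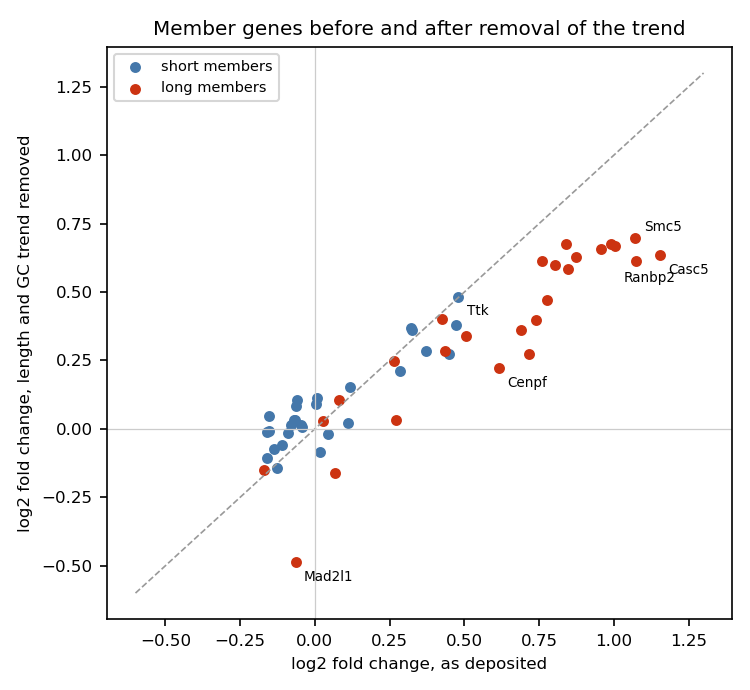
Log2 fold change of each member as deposited (horizontal axis) and after removal of the per-library trend on length and GC content (vertical axis), with the dashed line marking equal values. Long members (red) of high fold change fall below the line, with Ranbp2 going from 1.07 to 0.61, and short members (blue) stay near it.

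The libraries of a genotype also differed from each other in these genes. Against the Control mean the long members had medians of −0.17 (Control 1), 0.17 (Control 2), 0.97 (Shh-Stk11 1) and 0.45 (Shh-Stk11 2). The short members had −0.23, 0.23, 0.04 and −0.10 in the same order, so that the gap between the Controls was wider than that between the genotypes. All long genes had 0.05, −0.05, 0.10 and 0.03. Control 1 was the lowest library in 40 of 54 members, and Shh-Stk11 1 the highest in 32, of which 24 were long, while Shh-Stk11 2 was highest in none. Over all 13770 tested genes Control 1 was lowest in 2989, Shh-Stk11 1 highest in 3000 and Shh-Stk11 2 highest in 2665. Control 2 exceeded Control 1 by a median of 0.42 in log2 over the members, against 0.02 over all genes, and by 0.45 over the short members alone. With that trend on length and GC content removed, the long members stood at −0.19, 0.19, 0.60 and 0.18, so that Control 2 and Shh-Stk11 2 were nearly level.

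**Figure D4:**
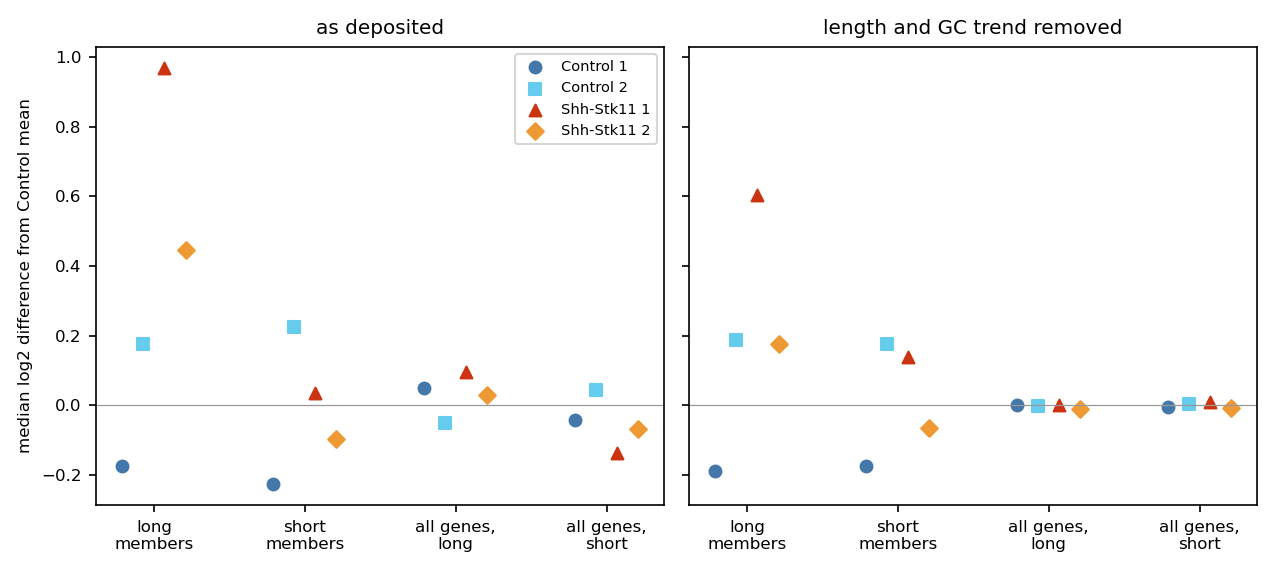
Median difference in log2(FPKM + 0.1) from the Control mean in each library, over the 26 long members, the 28 short members and all tested genes of each length class, as deposited (left) and after removal of the length and GC trend (right). Shh-Stk11 1 stands highest for the long members in both panels, at 0.97 and 0.60, and Shh-Stk11 2 goes from 0.45 to 0.18, beside Control 2 at 0.19.

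Without Shh-Stk11 1 the median of the long members was 0.45, and without Shh-Stk11 2 it was 0.97. Single genes depended on a library as well. Without Shh-Stk11 1 the log2 fold change was 0.71 for Casc5, 0.53 for Mki67, 0.48 for Kif15, 0.41 for Kif20b, 0.40 for Cenpe, 0.36 for Cenpf, 0.29 for Kif11, 0.26 for Smc1a, 0.24 for Top2a, 0.23 for Ttk, 0.15 for Bub1 and 0.14 for Ndc80. Without Control 1 it was 0.56 for Sgol2, 0.41 for Kif15, 0.40 for Kif18a, 0.26 for Smc1a, 0.24 for Kif11, 0.22 for Ttk, 0.20 for Cenpc1, 0.19 for Cenpk and Top2a, 0.13 for Bub1, 0.10 for Cenpq and −0.06 for Ndc80. Each of these values is below the one from all 4 libraries by more than 1.5 times, and that of Ndc80 without Control 1 is of the other sign. No SMC gene but Smc1a moved that much downwards, with Smc2, Smc3, Smc4, Smc5 and Smc6 between 0.59 and 0.88 when either of these libraries was left out. Shh-Stk11 2 was the male library, and 4 members lie on the X chromosome (Cenpi, Kif4, Smc1a and Taf1), with a median of 0.35 and a range of 0.04 to 0.78. Their median was 0.14 without Control 1 and 0.17 without Shh-Stk11 1. In all 4 of them Control 1 was the lowest library. The sex difference and the genotype cannot be told apart for Shh-Stk11 2 alone, since no Control was male.

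Further mitotic genes outside the list were described in the same way, from 3 lists with 90 tested genes. None passed the threshold, and 13 were higher and 1 was lower at an unadjusted p under 0.05, where 8.04% and 7.18% of all tested genes were. Of the 13, 11 were among the 32 long genes, and 14.8% of all long genes were higher at that level. The median log2 fold change was 0.00, with 0.21 over the 32 long genes (0.10 without Shh-Stk11 1, 0.11 with the length and GC trend removed) and −0.05 over the 57 short ones. The 18 subunits and regulators of cohesin and condensin that are not SMC proteins had 0.48 as their median, but 0.22 without Control 1, 0.27 without Shh-Stk11 1 and 0.23 with the trend removed. The highest was Stag2, the X-linked cohesin subunit that binds the ring, at 20.1 and 22.6 FPKM in Control and 45.0 and 34.5 FPKM in Shh-Stk11 (log2 fold change 0.89, SE 0.16, limma adjusted p = 0.0517). The lowest was Hdac8, the deacetylase of SMC3, at 15.7 and 17.5 FPKM against 11.1 and 13.2 FPKM (−0.45, SE 0.14, limma adjusted p = 0.190).

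The 26 further kinetochore and centromere genes had a median of 0.00. The lowest was Oip5, which codes for a loading factor of CENP-A, at 8.42 and 11.8 FPKM in Control and 8.03 and 7.95 FPKM in Shh-Stk11. Both mutant values lay below both Controls, by −0.31 in log2 with an SE of 0.18, which missed the threshold (limma adjusted p = 0.482) and was −0.07 without Control 2. The 46 genes of mitotic entry, exit and cytokinesis had −0.03, from Psrc1 at −0.31 (−0.14 without Control 2) to Ckap5, a microtubule polymerase gene, at 0.68 (0.45 without Shh-Stk11 1).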

How the data were processed

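RNA of whole lungs was sequenced in 4 libraries, and the authors deposited their FPKM values by gene and library as 1 table. The submitters' processing notes name TopHat2 2.0.13, Cufflinks 2.2.1 and the builds GRCm38 and mm9, without the role of either build. Gene positions are therefore not given, and the positions printed are those of RefSeq promoters in GRCm38.p6. Raw counts were not analysed here. Among 1717 genes below 0.3 FPKM, 76.4% were whole multiples (within 0.02 of a step, at most 10 steps in the lowest library) of a smallest step, from which the depths of 30.8 to 38.0 M reads were estimated with 200 bases taken off each length. These depths are point estimates that bear on counting error only, and they contain any scaling of the authors.

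The 13770 genes that averaged 0.5 FPKM or more were compared by limma 3.58.1 in R 4.3.3 (lmFit and eBayes with trend, 4.48 prior and 2 residual degrees of freedom) on log2(FPKM + 0.1), a scale that understates changes of low genes. Tests were two-sided, with Benjamini-Hochberg adjustment over all genes and a threshold of 0.05. Symbols were matched to GENCODE M21 (20242 directly, 1917 by RefSeq synonym, 397 unmatched) for length and GC content, whose trend was removed by loess (span 0.3) in an alternative. Values in every library are given for members named by the study, members past the threshold, the highest and lowest of each role, Plk1, Aurka, Aurkb, Ttk, Top2a, Birc5, Bub1, the long member nearest to 0 and the highest short member. Cenpa was added after its values were seen. One result of the further mitotic lists is not reported here. Members and lists were chosen with earlier results of these data known, so the direction of no member is independent evidence. The labels do not say that replicates came from separate litters, so p-values measure the spread between these libraries.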

Additional observations from a re-analysis of the deposited data

How the results depend on the processing

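The member past the threshold (1, Ranbp2) was also found with a pseudocount of 1 or 0.01, a minimum mean of 0.1 or 5 FPKM, and median-ratio scaling. It was 0 without a filter, with quantile normalization, with eBayes without trend and after removal of the length and GC trend, and 5 with robust eBayes (Aspm, Ranbp2, Smc3, Smc5 and Smc6). With each library left out in turn it ranged from 0 to 2, the 2 being Casc5 and Ranbp2 without Shh-Stk11 2. The median of the long members was 0.40 after removal of the trend, with or without the replicate block, and 0.37 with a length limit of 3000 bases, and it ranged from 0.45 to 0.97 with a library left out. The median of the short members stayed between −0.20 and 0.18 in these fits, and the sign of a value this near 0 carried no call. Of 125 alternative counts and medians, 91 stayed on the same side of the threshold, within 1.5 times or within the spread, as did 372 single-gene values in 357 cases.

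Over all tested genes the counts were 135 higher and 178 lower. They were 20 and 41 without a filter, 303 and 284 with robust eBayes, and 90 lower with a filter of 5 FPKM, and 105 were lower after removal of the trend. With a library left out, 15 to 64 were higher and 23 to 127 lower.

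With the replicate block 0 members, 6 higher and 7 lower genes passed, and with the trend removed as well 0 members, 23 higher and 32 lower genes did. The labels do not tie the numbers to a litter or day, so only a shared number is known. Deviations of same-numbered libraries were correlated at −0.11, which cannot show whether they shared a litter or day. A crossed pairing, added after seeing the data, gave 10 members and 360 higher and 315 lower genes. A split by protein length was not run, and one by coding length was added after seeing the data. The causes of these shifts were not tested. With 2 libraries a group, p-values rest on few samples, and the least covered member had about 270 estimated reads in a library.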
